A study of Mus musculus with 9 samples.

Results

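The genes described here encode 7 chemoattractant receptors of innate immune cells: the formyl peptide receptors Fpr1 and Fpr2, the complement receptors C5ar1, C5ar2 and C3ar1, and the lipid receptors Ltb4r1 and Ptafr. They were taken by symbol from the deposited expression table, where all 7 were found among 54532 genes. Of these, 6 passed the filter for testing, and C3ar1 did not. RNA of mouse myeloid cells had been sequenced in 9 libraries, 3 in each of the groups KO, Gr_1 and fl, each library carrying the letter A, B or C. KO libraries came from mice labelled as Socs3 knockouts, and Gr_1 and fl libraries from mice labelled wild type. All mice were C57BL/6 of 6 to 8 weeks, and the source was given as white cells for every group. The labels spell out neither the names Gr_1 and fl, nor the driver or allele behind the knockout, nor whether libraries of a group were separate animals, so the p-values reflect only how much these libraries vary, which may be technical variation. The title of the series places the work in early-stage myeloid-derived suppressor cells that lack SOCS3.

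Chemoattractant receptors are membrane proteins with which neutrophils, monocytes and macrophages sense infection and tissue damage. Most of them couple to inhibitory G proteins, and ligand binding sets off calcium release, shape change, directed movement, degranulation and the oxidative burst. Formyl peptides come from bacteria and mitochondria, C5a and C3a are fragments of complement, and leukotriene B4 and platelet-activating factor are lipids that leukocytes make themselves. Neutrophils acquire many of these receptors late in their maturation in the bone marrow. SOCS3 limits signalling through STAT3 downstream of the receptors for G-CSF and IL-6.

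Fpr1 (ENSMUSG00000045551, chr17:17876471-17883940, minus strand) and Fpr2 (ENSMUSG00000052270, chr17:17887824-17893952, plus strand) lie head to head on GRCm38, 3883 bases apart. C5ar1 (ENSMUSG00000049130, chr7:16246743-16259540) and C5ar2 (ENSMUSG00000074361, chr7:16234585-16244154) follow each other on the minus strand of chromosome 7 with 2588 bases between them. The sequences shown here are the 250 bases upstream of a RefSeq start (GRCm38.p6). They are given for the formyl peptide receptor genes, which changed together, and for the first of 2 RefSeq starts of C5ar2. In that C5ar2 window, a motif of the C/EBP family named in the series' title was matched. Capitals mark matches to TTCNNNGAA, bound by STAT proteins, or to TTGCNNAA, bound by C/EBP proteins. Each sequence is written in the direction of its gene.
Fpr1 (chr17:17883940-17884189, minus strand): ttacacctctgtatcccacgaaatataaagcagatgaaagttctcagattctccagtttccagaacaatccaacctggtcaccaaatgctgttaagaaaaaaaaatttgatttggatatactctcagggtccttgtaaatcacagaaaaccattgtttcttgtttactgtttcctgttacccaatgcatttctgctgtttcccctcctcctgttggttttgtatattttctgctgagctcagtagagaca
Fpr2 (chr17:17887574-17887823, plus strand): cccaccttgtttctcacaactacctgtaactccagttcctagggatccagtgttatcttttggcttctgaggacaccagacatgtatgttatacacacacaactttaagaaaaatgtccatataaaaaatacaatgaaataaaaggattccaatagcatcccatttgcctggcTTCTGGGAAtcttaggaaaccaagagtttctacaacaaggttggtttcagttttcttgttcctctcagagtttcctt
C5ar2 (chr7:16244155-16244404, minus strand): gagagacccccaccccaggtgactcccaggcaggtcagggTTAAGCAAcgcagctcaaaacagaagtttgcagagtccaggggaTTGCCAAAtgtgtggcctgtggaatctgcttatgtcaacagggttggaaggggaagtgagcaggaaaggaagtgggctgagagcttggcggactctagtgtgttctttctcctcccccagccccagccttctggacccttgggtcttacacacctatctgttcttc

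Upstream of Fpr2, TTCTGGGAA matched the STAT motif, beginning 77 bases before the start (position -77). The C5ar2 window shown held TTAAGCAA at -210, which matches the C/EBP motif on the opposite strand, and TTGCCAAA at -166. The window of the second RefSeq start of C5ar2 held none of the motifs searched. Neither motif was present in the Fpr1 window, and GAGGAAGT, bound by PU.1, was in none of the windows of the 7 genes. Among 32851 RefSeq windows of this length, from 27025 genes, 7.02% held the STAT motif, 9.56% the C/EBP motif and 2.44% the PU.1 motif on either strand. A match describes letters and not a bound site. The windows of the other receptor genes held none of the 3 motifs.

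C3ar1 (ENSMUSG00000040552, chr6:122847138-122856161, minus strand), Ltb4r1 (ENSMUSG00000046908, chr14:55765962-55768494, plus strand) and Ptafr (ENSMUSG00000056529, chr4:132564067-132582683, plus strand) each lie on a chromosome with no other of the 7 genes. Ltb4r1 lies 823 bases from Ltb4r2, a second leukotriene B4 receptor. Fpr3, a further formyl peptide receptor gene, overlaps Fpr2 on the same strand, so fragments could have been split between them. Their transcripts share an identical run of 94 bases. The longest identical run was 50 bases between Fpr1 and Fpr2, 19 bases between C5ar1 and C5ar2, and 57 bases between C5ar2 and Ptafr. All of these runs, that of Fpr2 and Fpr3 included, are shorter than the reads of 125 or 150 bases.

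Expression is given as FPKM as the authors deposited it, fragments per kilobase of exon and per M (mega) of a denominator that differed by library. Whole fragments could be recovered from these values, and the libraries held between 18.3 and 21.5 M of them. The denominator lay below the recovered fragments in every Gr_1 library (18.2 against 21.5 M in Gr_1 B). In every KO and fl library it lay above them (21.7 against 19.6 M in KO B, 20.8 against 19.5 M in fl B). FPKM were thus higher in Gr_1, and lower in KO and fl, than values per M recovered fragments would be. The reason for this scaling was not tested. All 8 genes listed for myeloid cells, among them Ptprc, Itgam, Spi1 and Csf3r, were above 1 FPKM on average in every group. So was Cd79a of the B cell list, at 21.7, 106 and 26.3 FPKM in KO, Gr_1 and fl. Passing this level therefore does not identify the cells. Libraries labelled KO did not have less Socs3 than fl libraries, at 9.23, 6.76 and 8.37 FPKM in KO, 37.0, 36.6 and 33.0 FPKM in Gr_1, and 3.87, 4.02 and 3.41 FPKM in fl. It was called higher in KO than in fl (log2 change 0.93 ± 0.11 SE, adjusted p = 0.00136, limma). The labels do not say which part of the gene was removed, so a whole-gene value checks the label only in part. Lyz2, the lysozyme gene that carries Cre in a widely used myeloid driver line, was at 53.2, 59.8 and 56.0 FPKM in KO, against 10694, 10808 and 10486 FPKM in Gr_1 and 8670, 8827 and 9998 FPKM in fl. The labels do not name the driver of these mice.

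The KO libraries stand apart from one another in a way that touches every KO value here. Xist, transcribed from the inactive X chromosome, was at 0.00280 FPKM in KO A, 58.5 FPKM in KO B and 26.3 FPKM in KO C, and no Gr_1 or fl library exceeded 0.0104 FPKM. Uty, Kdm5d, Eif2s3y and Ddx3y, which lie on the Y chromosome, summed to 26.5, 0 and 14.2 FPKM in KO A, B and C, and to 30.7 to 39.3 FPKM in Gr_1 and 16.6 to 27.3 FPKM in fl. KO A thus held Y-linked RNA with almost no Xist, KO B the reverse and KO C both, while all Gr_1 and fl libraries were like KO A. A difference by sex cannot be told apart from other differences of KO B and KO C. KO C also held the middle value of the KO libraries in 61.5% of the 12289 genes tested, while no library of the other groups held it in more than 44.2%. Whether KO C shares cells or RNA with the other KO libraries was not tested. The fitted changes of the 6 tested receptors, their shares and make-up, and most counts of gene lists are therefore given with KO C and without it. The fits of C3ar1 were run with KO C only.

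In KO libraries, the formyl peptide receptors and C5ar1 were higher than in fl, and every receptor tested was lower than in Gr_1. Between KO and fl, 11.0% of all 12289 genes tested were called (4.48% higher and 6.52% lower, 1352 genes). Of the 6 receptors tested, 3 were called higher and none lower, at a median log2 change of 0.72, beside a median of -0.01 for all genes. The count for all genes was 573 without KO C, 818 without fl A and 730 without fl B. FPKM values of KO and fl libraries did not overlap for 3 of the 7 receptors, beside 31.4% of all genes tested. Between KO and Gr_1, 55.7% of genes were called (26.7% higher and 28.9% lower), and 6 of 6 receptors tested were lower, with a median log2 change of -1.81; all 7 receptors had no overlap between the groups, beside 68.2% of all genes. Between Gr_1 and fl, 61.4% were called (30.0% higher and 31.4% lower), and the same 6 were higher in Gr_1, with a median of 2.49; again all 7 receptors were apart, beside 67.5% of all genes. These comparisons share libraries and are not independent of each other.

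**Figure D1:**
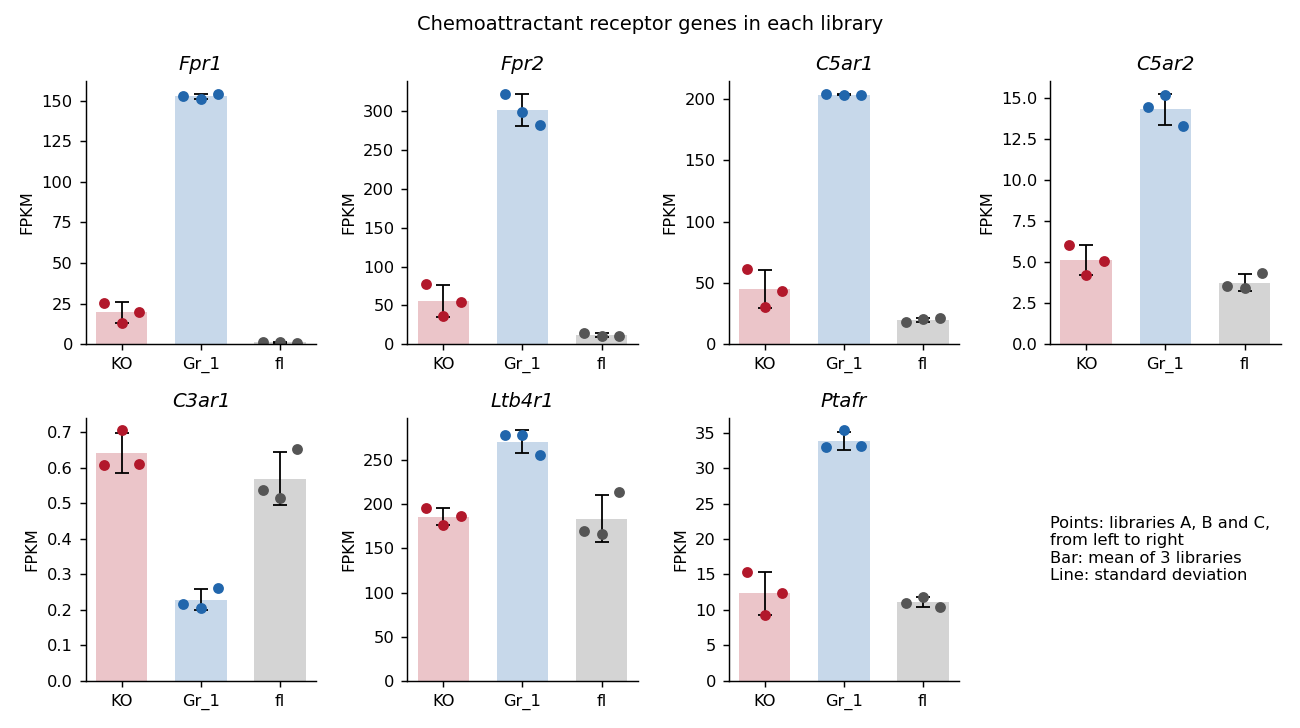
FPKM (y axis, linear, from 0) of each receptor gene in the KO, Gr_1 and fl libraries (x axis). Points are libraries A, B and C from left to right, bars are means and lines are standard deviations of 3 libraries. Gr_1 is highest for 6 genes and lowest for C3ar1, and KO A lies above KO B for every gene but C3ar1.

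Fpr1 encodes a receptor with high affinity for short bacterial formyl peptides. Its level was 25.5, 13.1 and 20.1 FPKM in KO A, B and C, against 1.41, 1.35 and 0.613 FPKM in fl. The groups did not overlap, and KO B, the lowest KO library, stood well above the highest fl library. The mean was 19.6 ± 6.26 FPKM in KO and 1.12 ± 0.442 FPKM in fl (SD, n = 3 each), a 17.4-fold difference. On the log2(FPKM + 1) scale the change was 3.25 ± 0.23 SE (adjusted p = 0.000297, limma), and without KO C it was 3.21 (adjusted p = 0.00328). The fl values rest on 15 to 41 fragments per library and the KO values on 376 to 672, so the fl level is the less precise part of this ratio. Gr_1 libraries held 153, 151 and 154 FPKM. KO was 7.81-fold below Gr_1 (log2 change -2.95 ± 0.23 SE, adjusted p = 3.53e-05), and Gr_1 was 136-fold above fl (6.20 ± 0.23 SE, adjusted p = 5.96e-07).

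Fpr2 encodes a receptor with a broader range of ligands, which binds formyl peptides, amyloid proteins, the cathelicidin Camp and the anti-inflammatory protein annexin A1. KO A, B and C held 77.0, 35.8 and 54.3 FPKM, against 14.4, 10.6 and 10.6 FPKM in fl. Again the groups did not overlap, and the KO libraries differed from one another by more than the fl libraries did. The difference was 4.69-fold (log2 change 2.09 ± 0.24 SE, adjusted p = 0.00136, limma) and 2.07 without KO C (adjusted p = 0.00978). Gr_1 libraries, at 323, 299 and 282 FPKM, exceeded KO by 5.41-fold (KO against Gr_1 -2.48 ± 0.24 SE, adjusted p = 7.37e-05) and fl by 25.4-fold (4.56 ± 0.24 SE, adjusted p = 2.12e-06). Has1, the gene on the far side of Fpr1, stayed at or under 0.0479 FPKM on average in all groups. Fpr3, which overlaps Fpr2, reached 0.318, 0.326 and 0.218 FPKM in KO, 0.689, 2.35 and 1.63 FPKM in Gr_1, and 0.0717, 0.114 and 0 FPKM in fl. The further family members Fpr-rs3, Fpr-rs4, Fpr-rs6 and Fpr-rs7 were listed at 0 in every library.

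Fpr1 made up a larger share of the formyl peptide receptor FPKM in KO than in fl. Of the summed FPKM of Fpr1 and Fpr2, Fpr1 held 24.9%, 26.7% and 27.0% in KO, 32.1%, 33.6% and 35.3% in Gr_1, and 8.90%, 11.2% and 5.47% in fl. No library of one group fell within the range of another, and the order of the groups was Gr_1, KO, fl. KO exceeded fl by 17.7 percentage points and differed from Gr_1 by -7.47 points. The exact permutation test of single values, two-sided and with 3 libraries on each side, gave p = 0.1 for both differences, the smallest p it can give. Without KO C the difference from fl was 17.3 points. Because both values come from the same library, library scaling drops out of this share.

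**Figure D2:**
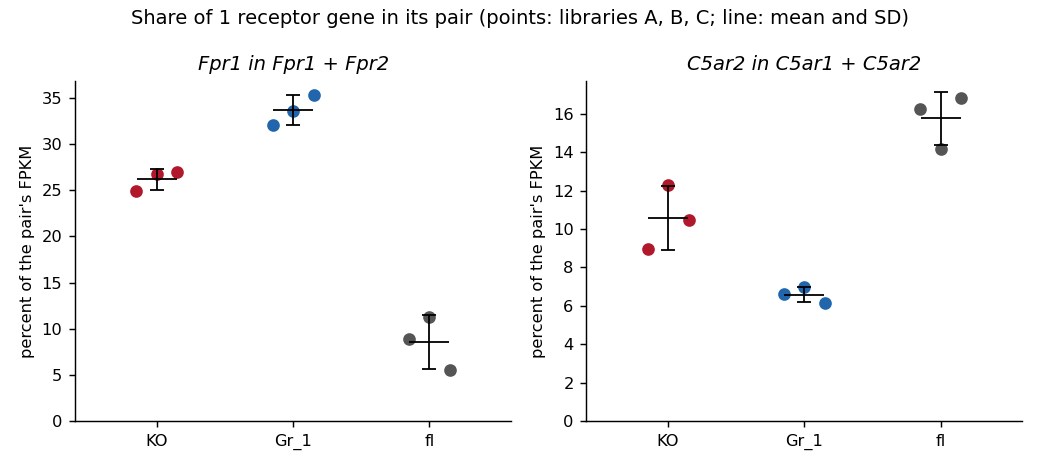
Share of one receptor gene in the summed FPKM of its pair (y axis, percent, from 0), for Fpr1 among Fpr1 and Fpr2 (left) and C5ar2 among C5ar1 and C5ar2 (right), by group (x axis). Points are libraries A, B and C, and lines are the mean and standard deviation of 3. KO lies between Gr_1 and fl in both panels, at 26.2% for Fpr1 and 10.6% for C5ar2.

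C5ar1 encodes the main receptor for C5a, a strong attractant of neutrophils. Its FPKM was 61.4, 30.2 and 43.5 in KO A, B and C, against 18.1, 20.7 and 21.3 in fl. The groups did not overlap, though KO B came closer to fl than the other KO libraries did. The difference was 2.25-fold (log2 change 1.08 ± 0.21 SE, adjusted p = 0.0123, limma). Without KO C the change was 1.07 ± 0.25 SE with an adjusted p of 0.0514. The call was thus lost without that library, while the size of the change hardly moved. Gr_1 libraries lay closely together at 204, 203 and 203 FPKM, with KO 4.52-fold below them (-2.21 ± 0.21 SE, adjusted p = 6.57e-05) and fl 10.2-fold below them (Gr_1 against fl 3.28 ± 0.21 SE, adjusted p = 4.64e-06).

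C5ar2 encodes a second C5a receptor, which binds arrestin but does not couple to G proteins. KO libraries held 6.06, 4.24 and 5.10 FPKM, against 3.52, 3.42 and 4.33 FPKM in fl. KO B lay below fl C, so the groups overlapped. The log2 change was 0.36 ± 0.12 SE (95% interval 0.09 to 0.63, adjusted p = 0.0931, limma), which missed the threshold. It passed without KO B (0.47, adjusted p = 0.0356) and after rescaling without the 10 most abundant genes (0.43, adjusted p = 0.0374). In Gr_1 the level was 14.5, 15.2 and 13.3 FPKM. KO was 2.79-fold lower than Gr_1 (-1.33 ± 0.12 SE, adjusted p = 5.61e-05) and Gr_1 was 3.81-fold higher than fl (1.69 ± 0.12 SE, adjusted p = 7.76e-06).

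Within the C5a receptor pair, C5ar2 made up a smaller share where the total was larger. It held 8.99%, 12.3% and 10.5% of the summed FPKM in KO, 6.61%, 6.97% and 6.16% in Gr_1, and 16.3%, 14.2% and 16.9% in fl. The groups did not overlap in any pair. KO differed from fl by -5.18 percentage points and from Gr_1 by 4.01 points (exact two-sided permutation p = 0.1 each, the smallest possible). Without KO C the difference from fl was -5.13 points. Of the genes beside this pair, Inafm1 differed by 0.12 (log2) between KO and fl (adjusted p = 0.522, limma) and Dhx34 by -0.20 (adjusted p = 0.176).

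C3ar1, the receptor for C3a, was the lowest of the 7 genes and the only one with Gr_1 as its lowest group. Its FPKM was 0.608, 0.705 and 0.609 in KO, 0.217, 0.205 and 0.261 in Gr_1, and 0.538, 0.515 and 0.653 in fl. KO and fl overlapped, while every Gr_1 library lay below all of the others. The values rest on 52 to 66 fragments per library in KO, 15 to 18 in Gr_1 and 46 to 52 in fl. It did not reach 1 FPKM in any library and so was not tested in the fit used for the other genes. The planned limma fit with no filter, on log2(FPKM + 1), gave 0.42 ± 0.06 SE for KO against Gr_1 (adjusted p = 0.00196). It gave -0.35 ± 0.06 SE for Gr_1 against fl (adjusted p = 0.00326) and 0.07 ± 0.06 SE for KO against fl (adjusted p = 0.674). That scale understates changes at such low levels. A limma voom fit on the recovered fragments with no filter, chosen after these levels were seen, gave log2 changes of 1.47 ± 0.27 SE for KO against Gr_1 (adjusted p = 0.00097), -1.29 ± 0.28 SE for Gr_1 against fl (adjusted p = 0.00228) and 0.18 ± 0.21 SE for KO against fl (adjusted p = 0.688). C3ar1 was 2.81-fold higher in KO than in Gr_1 and 2.498-fold lower in Gr_1 than in fl.

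Ltb4r1 encodes BLT1, the high-affinity leukotriene B4 receptor, and was the most abundant of the 7 genes in KO and fl. Its FPKM was 196, 176 and 186 in KO, against 170, 167 and 214 in fl. The groups overlapped, with fl C above every KO library. The change was 0.03 ± 0.10 SE on the log2 scale (95% interval -0.21 to 0.26, adjusted p = 0.894, limma). Gr_1 held 278, 279 and 256 FPKM, and was thus apart from both other groups but by less than for the other tested receptors. KO was 1.46-fold lower than Gr_1 (-0.54 ± 0.10 SE, adjusted p = 0.00221), and Gr_1 was 1.48-fold higher than fl (0.57 ± 0.10 SE, adjusted p = 0.00133). Ltb4r2, which lies next to it, averaged 0.788 FPKM in KO, 0.562 FPKM in Gr_1 and 0.611 FPKM in fl.

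Ptafr encodes the receptor for platelet-activating factor. KO libraries held 15.4, 9.26 and 12.3 FPKM, against 11.0, 11.9 and 10.4 FPKM in fl. One KO library lay below all fl libraries and the others above them. The log2 change was 0.11 ± 0.15 SE (95% interval -0.22 to 0.44, adjusted p = 0.662, limma). At 33.0, 35.3 and 33.1 FPKM, Gr_1 exceeded KO by 2.74-fold (KO against Gr_1 -1.41 ± 0.15 SE, adjusted p = 0.0001) and fl by 3.04-fold (1.52 ± 0.15 SE, adjusted p = 3.55e-05). Without KO C, all 6 receptors tested were still called lower in KO than in Gr_1, and the log2 changes against fl were 0.36 for C5ar2, 0.03 for Ltb4r1 and 0.10 for Ptafr, none of them called.

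**Figure D3:**
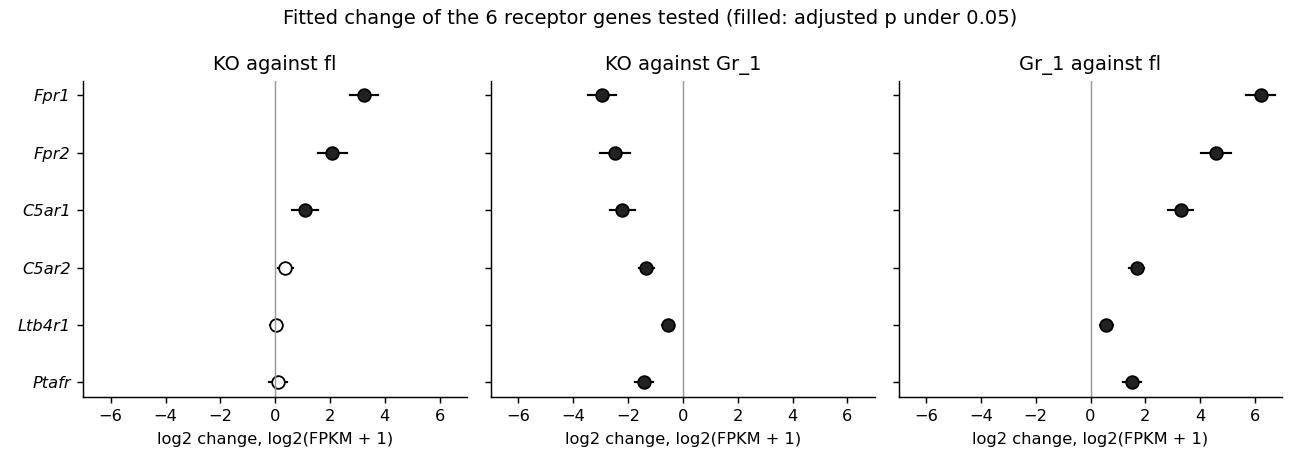
Fitted log2 change on the log2(FPKM + 1) scale (x axis) of the 6 tested receptor genes (rows) in KO against fl, KO against Gr_1 and Gr_1 against fl. Lines are 95% intervals, and filled points have an adjusted p under 0.05. Fpr1 has the largest change in each panel, at 3.25, -2.95 and 6.20, and Ltb4r1 the smallest, at 0.03, -0.54 and 0.57.

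The receptor genes changed by unequal amounts, and so the make-up of their summed FPKM differed between groups. The sum over the 7 genes was 324 ± 56.2 FPKM in KO, 977 ± 31.9 FPKM in Gr_1 and 232 ± 26.0 FPKM in fl (SD, n = 3 each). Ltb4r1 held 58.1% ± 7.05 of it in KO, 27.7% ± 0.590 in Gr_1 and 78.9% ± 2.40 in fl. The pair of formyl peptide receptors went the other way: Fpr2 held 16.8% ± 3.44 in KO, 30.8% ± 1.13 in Gr_1 and 5.19% ± 1.29 in fl, and Fpr1 5.92% ± 0.959, 15.6% ± 0.644 and 0.501% ± 0.232 in the same order. C5ar1 held 13.6% ± 2.44 in KO, 20.9% ± 0.623 in Gr_1 and 8.69% ± 0.808 in fl. In contrast, C5ar2 stayed close to a constant share, at 1.58%, 1.47% and 1.62% in KO, Gr_1 and fl. Ptafr held 3.77% in KO, 3.46% in Gr_1 and 4.85% in fl. Without KO C the KO sum averaged 325 FPKM, of which Ltb4r1 held 58.3%, Fpr2 16.7%, C5ar1 13.7% and Fpr1 5.77%.

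**Figure D4:**
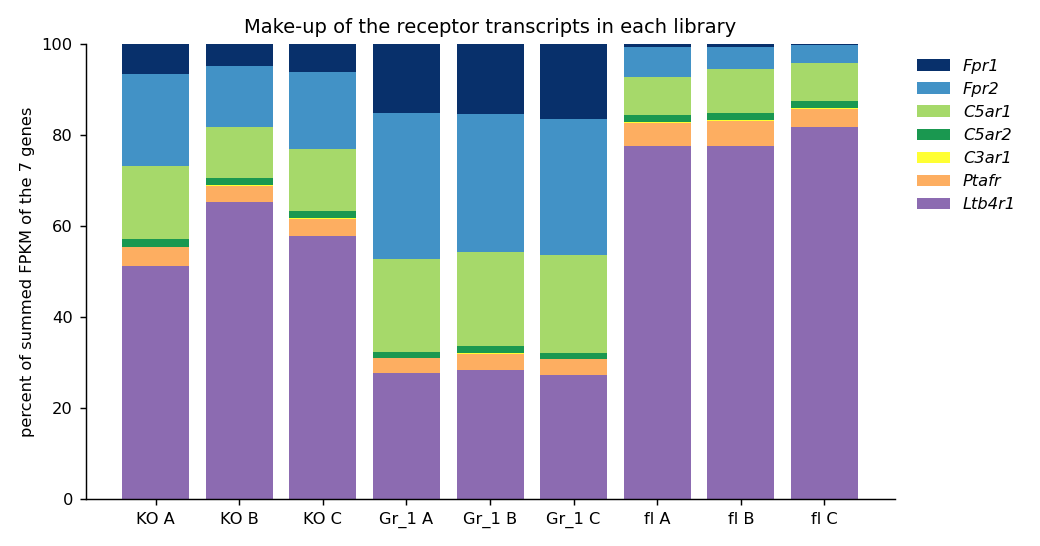
Percent of the summed FPKM of the 7 receptor genes (y axis, 0 to 100) held by each gene in each of the 9 libraries (x axis). Ltb4r1 fills the largest part of every KO and fl column and Fpr2 the largest part of every Gr_1 column, with KO B closer to fl than KO A or KO C.

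Several receptors shared the spread between KO libraries. KO A exceeded KO B by 1.96-fold for Fpr1, 2.15-fold for Fpr2, 2.03-fold for C5ar1, 1.66-fold for Ptafr, 1.43-fold for C5ar2 and 1.11-fold for Ltb4r1, and C3ar1 was at 0.862 of the KO B value in KO A. Ly6g, which encodes a surface marker of neutrophils, had a ratio of 2.45 between the same libraries. KO C lay between them for all 7 receptors, at 42.7% to 56.2% of the way from KO B to KO A for the 6 tested genes. KO A and KO B also differed in Xist and Y-linked RNA, and the part of sex in this spread was not tested.

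Late neutrophil genes were called in the same directions as the receptors in every comparison. No other list of a cell type or maturation stage was. In bulk RNA, more cells of a type and more RNA per cell cannot be told apart. Of 20 late neutrophil genes, 14 were higher in KO than in fl and none lower, beside 4.48% of all genes higher. All 20 were lower in KO than in Gr_1, beside 28.9% of all genes, and 20 were higher in Gr_1 than in fl, beside 30.0%. The summed FPKM of the late neutrophil genes was 50498 to 74122 in KO, 132886 to 136741 in Gr_1 and 45586 to 48187 in fl. Most of this sum was S100a8 and S100a9, neither of which was called between KO and fl. Ly6g averaged 107 FPKM in KO, 684 FPKM in Gr_1 and 9.99 FPKM in fl, and Mmp9, the gelatinase of neutrophil granules, 215, 1621 and 13.4 FPKM in the same order. Without KO C, 10 of the 20 were called higher in KO than in fl; the number was 9 without fl A and 9 without fl B. Of 12 early granulocyte genes, limma called none between KO and fl, beside 11.0% of all genes (2 had an unadjusted p under 0.05, and voom called 2). Between KO and Gr_1, 7 of them were higher and 2 lower, beside 55.7% of all genes called. Between Gr_1 and fl, 3 were higher and 7 lower, at a median log2 change of -1.49, beside 61.4% of all genes called. Genes of the primary granules were low in Gr_1, with Elane at 2387 FPKM in KO, 92.7 FPKM in Gr_1 and 2402 FPKM in fl, and Mpo at 989 FPKM in KO, 56.5 FPKM in Gr_1 and 835 FPKM in fl. Ngp, of the secondary granules, was high in Gr_1, at 13111 FPKM in KO, 23527 FPKM in Gr_1 and 10540 FPKM in fl. The summed FPKM of the list, 32492 to 37840 in KO, 46521 to 48285 in Gr_1 and 28285 to 34828 in fl, thus does not show how most of its members changed. The part of neutrophil abundance or maturation in the receptor changes was not tested.

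Counts in the lists that follow stand beside the share of all genes called. It was 11.0% in KO against fl, 55.7% in KO against Gr_1 and 61.4% in Gr_1 against fl. Monocyte genes went in the opposite direction to late neutrophil genes between KO and fl. Of 16, 14 were lower in KO than in fl and none higher (10 lower without KO C), 12 were higher in KO than in Gr_1 and 1 lower, and 16 were lower in Gr_1 than in fl. The summed FPKM was 1032 to 1145 in KO, 721 to 794 in Gr_1 and 1742 to 2014 in fl. Csf1r, the receptor for M-CSF, averaged 47.1 FPKM in KO, 39.0 FPKM in Gr_1 and 105 FPKM in fl. Macrophage genes did not move as one group. Of the 12 tested, 6 were lower in KO than in fl (3 when fl A, fl B or KO C was left out), 4 were higher and 7 lower in KO than in Gr_1, and 6 were higher and 5 lower in Gr_1 than in fl. C1qa, a chain of complement C1q, averaged 5.37 FPKM in KO, 24.4 FPKM in Gr_1 and 7.91 FPKM in fl, while Cd68 averaged 45.5 FPKM in KO, 37.0 FPKM in Gr_1 and 105 FPKM in fl. Their sum, carried mostly by Apoe, Cd68 and Adgre1, was 236 to 246 FPKM in KO, 216 to 237 FPKM in Gr_1 and 349 to 424 FPKM in fl. Genes of eosinophils, basophils and mast cells summed to 4824 to 9526 FPKM in KO, 1487 to 1883 FPKM in Gr_1 and 4163 to 8848 FPKM in fl. Most of this sum was Prg2, which was not called between KO and fl. Of these 14 genes, 8 were higher in KO than in fl and none lower (2 higher without KO C or fl B, 3 without fl A). Among these 8 was Hdc, which is also on the late neutrophil list. In KO against Gr_1, 12 of the 14 were higher and 1 lower, and in Gr_1 against fl, 1 was higher and 5 lower. Of 8 tested T and NK cell genes, 7 were higher in KO than in fl (4 without KO B or KO C), 7 were higher and 1 lower in KO than in Gr_1, and 1 was higher and 2 lower in Gr_1 than in fl. Trbc1, a T cell receptor constant region gene, averaged 5.96 FPKM in KO, 0.578 FPKM in Gr_1 and 1.24 FPKM in fl. The sum of the list was 143 to 267 FPKM in KO, 21.6 to 27.3 FPKM in Gr_1 and 139 to 202 FPKM in fl. Most of it was Nkg7, a granule gene of cytotoxic cells, at 169 FPKM in KO, 16.5 FPKM in Gr_1 and 159 FPKM in fl. B cell genes were highest in Gr_1, at 184 to 244 FPKM in KO, 653 to 717 FPKM in Gr_1 and 227 to 261 FPKM in fl, and 0 of 8 were called between KO and fl by limma or by voom, with 0 at an unadjusted p under 0.05. No gene of these lists was at 0 on average in a group, and the part of these cells in the receptor values was not tested.

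Genes whose pattern over the 9 libraries was most like that of each receptor were found by Pearson correlation of log2(FPKM + 1), given without a p because the groups separate the points. For Fpr1 they were Ly6g (r = 0.999), the collagenase gene Mmp8 (0.998) and Scrg1 (0.998). Fpr2 was most like Mmp8, Arg2 and Clec4d (0.997 to 0.998), and C5ar1 most like Mirt1, St3gal6 and the G-CSF receptor gene Csf3r (0.998 to 0.999). The pattern of C5ar2 was close to those of S100a11 and Ncf1, a subunit of the phagocyte oxidase, at 0.999. Ptafr was most like Pabpc1l, Ccndbp1 and Slc37a3 (0.998 to 0.999), and Ltb4r1 most like Map2k3, Wwp2 and Mark2, with lower values (0.993 to 0.995). Among the receptors, r was 0.994 for Fpr1 with Fpr2, 0.987 for C5ar1 with C5ar2 and 0.796 for Fpr1 with Ltb4r1.

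Receptors of related families did not move as one group. Of 21 listed, which include other formyl peptide, leukotriene, nucleotide, sphingolipid and lysophosphatidic acid receptors, 11 were tested. Between KO and fl, 3 were higher and 3 lower (median log2 change 0.10), beside 11.0% of all genes called. P2ry6, a receptor for UDP, fell to 3.399, 2.33 and 3.15 FPKM in KO, against 8.00, 9.08 and 8.77 FPKM in fl, with no overlap (log2 change -1.29 ± 0.13 SE, adjusted p = 0.00092, limma), and was called whichever library was left out. P2ry2, a receptor for ATP and UTP, was higher in KO at 4.02 ± 0.206 FPKM, against 2.67 ± 0.363 FPKM in fl (0.46 ± 0.09 SE, adjusted p = 0.011), but not without KO C (adjusted p = 0.0505). S1pr1 (0.65, adjusted p = 0.0365) and P2ry14 (0.33, adjusted p = 0.0475) were also called higher in KO, and Lpar6 (-0.88, adjusted p = 0.0167) and Cysltr1, a receptor for cysteinyl leukotrienes (-0.54, adjusted p = 0.0317), lower. Each of these 4 lost its call without fl A or fl B or in every fit that left out a Gr_1 library, and the list as a whole held 1 called gene without KO C, 3 without KO A or KO B, and 2 without fl A or fl B. Between KO and Gr_1, 4 were higher and 3 lower, beside 55.7% of all genes called. They were led by P2ry14 (0.53, adjusted p = 0.00104) and S1pr4, a sphingosine 1-phosphate receptor (-1.22, adjusted p = 8.44e-05). When any one KO or Gr_1 library was left out, 2 to 4 were called. Between Gr_1 and fl, 5 were higher and 3 lower, beside 61.4% of all genes called. S1pr4 was at 84.7 ± 7.83 FPKM in Gr_1, against 33.4 ± 3.62 FPKM in fl (1.32 ± 0.12 SE, adjusted p = 2.83e-05).

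Of 25 genes that make or supply the ligands, 16 were tested. Between KO and fl, 1 was higher and none lower, beside 11.0% of all genes called. This was Lpcat2, which makes platelet-activating factor, at 30.5, 20.4 and 26.9 FPKM in KO, against 17.8, 16.3 and 16.6 FPKM in fl (0.57 ± 0.13 SE, adjusted p = 0.0225, limma); the call was lost without KO C or without any one fl library, and 3 genes of the list were called by voom. Between KO and Gr_1, 9 were lower and 2 higher (8 and 2 without KO C), beside 55.7% of all genes called. Lpcat2 was lower in KO (-1.24 ± 0.13 SE, adjusted p = 9.74e-05), as were Pafah1b3, a subunit of an enzyme that degrades platelet-activating factor (-1.64, adjusted p = 0.000123), and Cfp, which encodes the complement stabiliser properdin (-1.27, adjusted p = 0.000177). Lta4h, which makes leukotriene B4, was higher at 172 ± 6.48 FPKM in KO, against 132 ± 3.19 FPKM in Gr_1 (0.38 ± 0.09 SE, adjusted p = 0.00579). Between Gr_1 and fl, 9 were higher and 1 lower, beside 61.4% of all genes. Anxa1, the Fpr2 ligand annexin A1, reached 1430 ± 57.0 FPKM in Gr_1, against 386 ± 74.7 FPKM in fl (1.90 ± 0.17 SE, adjusted p = 2.29e-05), and Alox5, the first enzyme of leukotriene synthesis, 169 ± 11.3 FPKM, against 58.9 ± 2.28 FPKM in fl (1.505 ± 0.14 SE, adjusted p = 3.58e-05).

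Among 27 tested genes of the G proteins and effectors downstream (30 listed), 2 were called between KO and fl (0 without KO C), beside 11.0% of all genes. Voom called 5. Gng12 was higher in KO (0.28, adjusted p = 0.0406) and Lyn lower (-0.39, adjusted p = 0.0435), and leaving out any one library ended the call of Gng12, and in 8 of 9 cases that of Lyn. Between KO and Gr_1, 19 were lower and 1 higher (19 and 0 without KO C), beside 55.7% of all genes, and between Gr_1 and fl, 18 were higher and none lower, beside 61.4%. Pik3cg, the PI3-kinase driven by G protein subunits, averaged 16.1 ± 0.963 FPKM in KO, 27.6 ± 1.002 FPKM in Gr_1 and 15.6 ± 0.531 FPKM in fl (KO against Gr_1 -0.75 ± 0.06 SE, adjusted p = 4.77e-05, limma). Prex1, a Rac activator, was lower in KO at 22.2 ± 4.34 FPKM, against 50.1 ± 0.829 FPKM in Gr_1 (-1.16 ± 0.12 SE, adjusted p = 0.000106).

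Genes that switch receptors off or move them inside the cell were called in both directions. Of 15 tested (16 listed), 2 were higher and 3 lower in KO than in fl, beside 11.0% of all genes called. Grk5, a kinase of activated receptors, was lower at 7.04, 5.88 and 6.41 FPKM in KO, against 12.7, 15.0 and 12.9 FPKM in fl (-0.97 ± 0.10 SE, adjusted p = 0.00102, limma). Rgs10, which speeds the turn-off of G proteins, was lower at 8.32, 8.14 and 8.17 FPKM in KO, against 15.5, 15.3 and 17.1 FPKM in fl (-0.88 ± 0.11 SE, adjusted p = 0.00175). Both calls held whichever library was left out, and the groups did not overlap. Grk3 was lower in KO at 9.23 ± 0.227 FPKM, against 12.7 ± 0.334 FPKM in fl (-0.42, adjusted p = 0.012), but not without KO C. Tbc1d10c (0.73, adjusted p = 0.017) and Rgs18 (0.64, adjusted p = 0.0276) were higher in KO, though neither was called without KO C, and 2 genes of the list were called without that library. Between KO and Gr_1, 3 were higher and 12 lower (3 and 9 without KO C), beside 55.7% of all genes: Grk3 was higher in KO (1.17, adjusted p = 2.98e-05), and Arrb2, which encodes an arrestin, lower at 182 ± 27.8 FPKM, against 350 ± 10.2 FPKM in Gr_1 (-0.95 ± 0.10 SE, adjusted p = 0.000138). Between Gr_1 and fl, 8 were higher and 4 lower, beside 61.4% of all genes called. Arrb2 was among the higher (1.27, adjusted p = 1.65e-05) and Grk3 among the lower (-1.59, adjusted p = 1.72e-06).

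Of 12 other complement receptors and regulators, 7 were tested and 1 was called between KO and fl, beside 11.0% of all genes. The count was the same without KO C. Cd55, which protects cells by breaking up complement convertases, was at 4.21, 3.24 and 3.88 FPKM in KO, against 1.70, 1.45 and 1.39 FPKM in fl. The groups did not overlap, and the change was 0.92 ± 0.10 SE (adjusted p = 0.00134, limma), called whichever library was left out. Gr_1 held 10.1, 12.4 and 12.1 FPKM, more than KO (KO against Gr_1 -1.39 ± 0.10 SE, adjusted p = 3.4e-05). Itgam and Itgb2, which together form complement receptor 3, were lower in KO than in Gr_1, with Itgam at 66.8 ± 12.2 FPKM in KO, against 136 ± 0.580 FPKM in Gr_1 (-1.03 ± 0.11 SE, adjusted p = 0.000134) and Itgb2 at 402 ± 75.7 FPKM, against 789 ± 35.1 FPKM (-0.99 ± 0.13 SE, adjusted p = 0.000289). Between KO and Gr_1, 4 were lower and 1 higher (4 and 0 without KO C), and between Gr_1 and fl, 5 were higher and 1 lower, beside 55.7% and 61.4% of all genes.

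**Figure D5:**
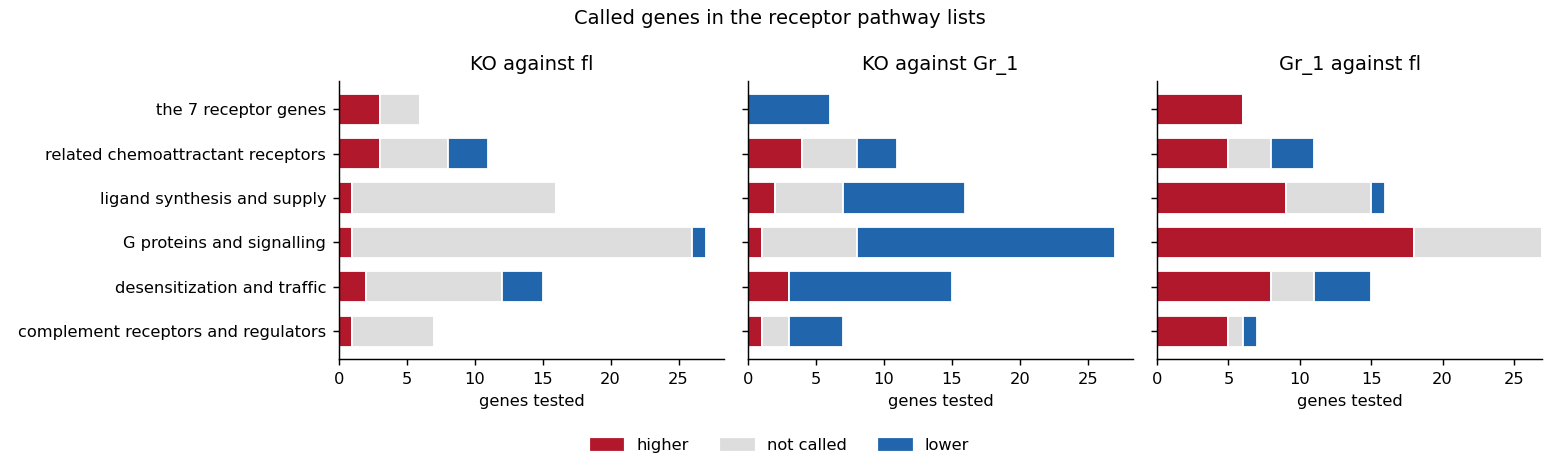
Number of tested genes (x axis) called higher, not called or called lower in each list (rows), in KO against fl, KO against Gr_1 and Gr_1 against fl. The top row holds the 6 tested receptor genes, of which 3 are higher in KO than in fl. Of the 27 tested genes of G proteins and signalling, 2 are called in KO against fl and 20 in KO against Gr_1.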

How the data were processed

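RNA of 9 libraries was profiled with paired-end reads, per the labels' protocols. The authors deposited 1 table of FPKM values per library, per the file headers. The submitters' processing notes name featureCounts (1.5.0-p3), DESeq2 (1.16.1) and the builds mm10 and GRCm38, and no aligner is named there. FPKM multiplied by the exon length in GENCODE M21, which matched 54409 of the 54532 gene IDs, gave whole fragments within 0.02 for 97.2% to 97.5% of values under 1000 fragments per library. A floor of 3 fragments corresponds to 0.136 to 0.187 FPKM for a gene with 1 kilobase of exon and covers counting error only. Recovered depth varied little, so precision was similar between libraries.

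The 12289 genes that reached 1 FPKM in 3 or more libraries were fitted as log2(FPKM + 1) by limma-trend (limma 3.58.1 in R 4.3.3), 1 term per group and no block. Tests were two-sided, with Benjamini-Hochberg adjustment over all genes tested, and genes were called at an adjusted p under 0.05. On this scale the log2 change understates the change of low genes, and folds are ratios of mean FPKM. The scripts were checked on simulated data. Single levels and shares also had exact permutation tests of 3 against 3 libraries, whose smallest p is 0.1. Smaller tables used pandas 2.3.3, numpy 2.4.6 and scipy 1.17.1 under Python 3.11.15, and figures matplotlib 3.10.9. All 7 receptor genes matched RefSeq promoter windows.

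The receptors, the gene lists and the alternatives were chosen with earlier results of these data known. Named were all receptors and Socs3, up to 3 called members per direction of each list and comparison by smallest adjusted p, the 3 genes most like each tested receptor, and nearest neighbours. Genes outside this rule (Lyz2, Xist, the Y-linked genes, cell type markers, Fpr3 and the Fpr-rs genes) were named after their values were seen. A few genes that the rule would name are not reported here. Deviations of libraries with the same letter correlated at -0.0618 to 0.14, so the letters were not taken to pair libraries. Alternatives were another pseudocount, other filters, quantile scaling, rescaling without the 10 most abundant genes, voom on recovered fragments, a fit of only the groups compared, a replicate block and leaving out each library.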

Additional observations from a re-analysis of the deposited data

How the results depend on the processing

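Of 324 recomputed log2 changes of the receptors, 321 kept their direction and their side of the threshold or, where never called, stayed uncalled. The exceptions were in KO against fl. C5ar1 had a range of 0.83 to 1.33 when any one library was left out and missed the threshold without KO C (1.07, adjusted p = 0.0514). C5ar2 had a range of 0.25 to 0.47 in the same fits, passed without KO B, and passed without the 10 most abundant genes (0.43, adjusted p = 0.0374). Fpr1 ranged from 3.04 to 4.14 over all settings (called in 18 of 18, and not tested under the filter in all 9 libraries) and Fpr2 from 1.82 to 2.36 (called in 19 of 19). Ltb4r1 and Ptafr, never called in this comparison, ranged from -0.04 to 0.15 and from -0.05 to 0.29. The share of Fpr1 in its pair differed by 16.1 to 19.0 percentage points when a library was left out, and that of C5ar2 by -6.04 to -4.38.

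The number of genes called in KO against fl was 797 with only the 6 libraries compared and 573 to 1261 when any one library was left out. With a replicate block it was 1037, and the block changed no call of a receptor. Rescaling without the 10 most abundant genes moved the median of all genes to 0.06, 0.17 and -0.12 in KO against fl, KO against Gr_1 and Gr_1 against fl, and the calls to 810 higher and 576 lower, 4821 and 2523, and 3043 and 4599, where the deposited scale gave 551 and 801, 3287 and 3556, and 3686 and 3864. Quantile scaling gave 3904 higher and 3139 lower in KO against Gr_1, and voom 827 and 792 in KO against fl. No called receptor changed direction under any scaling. Depth limits C3ar1 in all groups and Fpr1 in fl most, since these rest on the fewest fragments. The cause of these shifts was not tested.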
